A study of Mus musculus with 9 samples.

Results

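The 42 mitosis genes described here encode proteins that carry a dividing cell from the end of DNA replication through chromosome segregation to the split into daughter cells. They were taken by gene symbol from the 40879 symbols counted in 9 libraries of mouse type 2 conventional dendritic cells (cDC2s), and all 42 were among the 13251 genes with enough counts to be tested. The cells were sorted from bone marrow grown for 9 days with 100 ng/ml Flt3L, the growth factor that drives dendritic cell development. The 3 groups of 3 libraries were wild type (WT), WT cultures that received interferon alpha on day 5 (WT+IFNa), and A20iKO, whose cells came from A20fl/fl x CD11ccre mice. In these mice Cre recombinase is driven by the CD11c (Itgax) promoter, so deletion of A20, the ubiquitin-editing inhibitor of NF-kB signalling encoded by Tnfaip3, is directed to CD11c-expressing cells and not to every cell of the culture. The titles name IFNa for the WT+IFNa libraries alone, whereas the treatment field names it for all 9 libraries, so the groups rest on the titles. Each group came from 3 mice. The labels do not say whether a library is a single mouse, so errors and p-values below measure the spread between libraries.

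Entry into mitosis is driven by the kinase CDK1 bound to B-type cyclins, which is switched on by CDC25 phosphatases and helped by Polo-like and Aurora kinases. Kinesin motors then build the spindle, the kinetochore ties chromosomes to it, the spindle checkpoint delays separation until every chromosome is attached, and the ubiquitin ligase APC/C with CDC20 destroys cyclin B to end mitosis. Most of these genes are transcribed in waves that peak in G2 and mitosis, so in a mixed population their RNA is commonly read as a sign of cycling cells, and differentiated dendritic cells are known to divide little. The libraries hold RNA from many cells, and more dividing cells and more mitotic RNA per dividing cell cannot be told apart in them.

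Promoters of late cell cycle genes are known for the cell cycle genes homology region (CHR), bound by the MuvB complex, and for CCAAT boxes, bound by NF-Y. RefSeq promoter windows of 300 bases (250 before and 50 after an annotated start, build GRCm38.p6) were found for 35 of the 42 genes, in 37 windows. Ect2 and Prc1 each had a pair of overlapping windows that share their matches. The search covered both strands for the CHR forms TTTGAA, which reads TTCAAA on the other strand, and TTTAAA, a palindrome. It also covered CCAAT, which reads ATTGG on the other strand. TTTGAA stood in 29 of the 37 windows (78.4%), against 17.9% of all 32851 promoter windows and 12.5% of the 13012 windows of tested genes. CCAAT stood in 30 windows (81.1%), against 37.4% of all windows. TTTAAA stood in 9 windows (24.3% against 13.2%), and either CHR form together with CCAAT stood in 28 windows (75.7% against 10.7%). Of the 39 TTTGAA matches in these genes, 29 (74.4%) lay in the last 100 bases of the window, against 25.3% of the matches in all promoters. Mad2l1, Nuf2 and Nusap1 held none of the motifs in their windows. A match is a run of letters, and binding was not measured. The share of members with a match describes promoters of genes already known as mitotic and no response of the libraries.

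**Figure D1:**
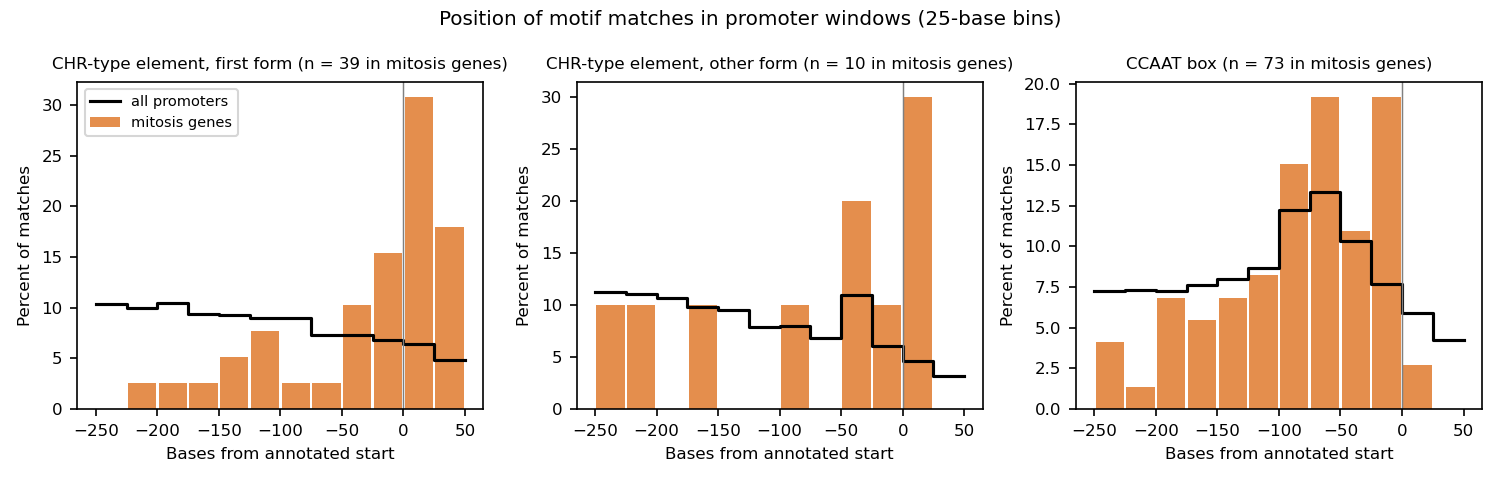
Position of motif matches relative to the annotated start (x axis, bases, in 25-base bins) as a percentage of all matches (y axis), for the mitosis genes (bars) and all RefSeq promoter windows (black line). The panels show, from the left, the first CHR form, the palindromic CHR form and the CCAAT box. Matches of the first CHR form in the mitosis genes gather around the start, with 74.4% in the last 100 bases, where all promoters have 25.3%.

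Printed here are 6 of these windows, 5′ to 3′ on the gene's own strand, with every match of the motifs in capitals. Ccnb1, Cdc20, Plk1 and Ube2c are shown from among the 25 members that rose in A20iKO, and each holds a CHR form and CCAAT. Not every member that rose does: the windows of Birc5 and Kif20b, for example, hold no CCAAT, and that of Bub1 no CHR form. Kif23 is shown because it fell in A20iKO, and Racgap1, whose product works in a complex with that of Kif23, because it passed in no comparison. The coordinates belong to the RefSeq table's build, while the counts were made on GRCm39.
Ccnb1, chr13:100786437-100786736, minus strand: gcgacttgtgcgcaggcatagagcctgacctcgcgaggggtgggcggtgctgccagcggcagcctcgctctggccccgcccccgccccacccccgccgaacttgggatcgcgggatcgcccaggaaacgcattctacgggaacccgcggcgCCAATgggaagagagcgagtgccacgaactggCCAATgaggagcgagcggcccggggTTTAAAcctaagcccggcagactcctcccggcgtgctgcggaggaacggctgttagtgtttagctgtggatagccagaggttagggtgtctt
Cdc20, chr4:118437294-118437593, minus strand: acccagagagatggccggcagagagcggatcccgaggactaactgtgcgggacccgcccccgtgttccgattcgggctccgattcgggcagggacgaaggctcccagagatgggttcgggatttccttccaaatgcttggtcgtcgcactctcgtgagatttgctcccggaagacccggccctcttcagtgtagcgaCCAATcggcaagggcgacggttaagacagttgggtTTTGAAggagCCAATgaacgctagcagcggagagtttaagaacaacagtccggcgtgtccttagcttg
Plk1, chr7:122159185-122159484, plus strand: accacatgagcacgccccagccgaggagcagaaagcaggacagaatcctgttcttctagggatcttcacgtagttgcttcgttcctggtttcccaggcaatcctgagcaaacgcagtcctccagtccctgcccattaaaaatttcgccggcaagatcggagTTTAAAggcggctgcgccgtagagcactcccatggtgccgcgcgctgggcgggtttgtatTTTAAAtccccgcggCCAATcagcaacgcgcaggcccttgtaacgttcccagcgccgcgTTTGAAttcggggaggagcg
Ube2c, chr2:164769679-164769978, plus strand: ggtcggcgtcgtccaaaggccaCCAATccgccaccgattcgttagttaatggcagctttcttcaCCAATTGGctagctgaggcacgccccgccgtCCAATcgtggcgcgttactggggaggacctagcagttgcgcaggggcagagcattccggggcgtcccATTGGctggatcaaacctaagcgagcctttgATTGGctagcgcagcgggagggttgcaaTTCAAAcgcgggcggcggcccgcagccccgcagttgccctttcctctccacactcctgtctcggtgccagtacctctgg
Kif23, chr9:61946750-61947049, minus strand: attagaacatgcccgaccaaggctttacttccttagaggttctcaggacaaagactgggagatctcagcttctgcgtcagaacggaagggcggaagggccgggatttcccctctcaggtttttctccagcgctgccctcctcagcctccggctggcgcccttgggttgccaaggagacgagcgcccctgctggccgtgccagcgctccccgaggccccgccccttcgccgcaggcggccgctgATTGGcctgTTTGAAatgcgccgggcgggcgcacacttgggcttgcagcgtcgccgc
Racgap1, chr15:99651607-99651906, minus strand: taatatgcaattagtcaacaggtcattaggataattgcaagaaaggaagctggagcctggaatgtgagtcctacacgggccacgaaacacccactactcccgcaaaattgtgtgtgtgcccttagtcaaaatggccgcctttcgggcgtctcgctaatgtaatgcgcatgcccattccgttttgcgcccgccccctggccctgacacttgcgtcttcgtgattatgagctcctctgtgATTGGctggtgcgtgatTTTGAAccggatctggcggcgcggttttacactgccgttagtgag
In Ccnb1 the CHR-type match is of the TTTAAA form and follows a pair of CCAAT boxes. Cdc20 has its TTTGAA between CCAAT boxes, Plk1 has 1 match of the first CHR form and 2 of the other, and Ube2c has 6 CCAAT matches, of which 2 overlap each other. In Kif23 and Racgap1 an ATTGG is followed closely by TTTGAA at the annotated start, so the same pair of motifs stands in windows of members that rose and of members that did not pass or fell.

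Total counts were 6900598 to 10552756 in WT, 7041519 to 10246810 in WT+IFNa and 7187359 to 9518822 in A20iKO. Each read of this assay marks a transcript's 3′ end, so a level in CPM (a gene's counts scaled to a common library size with TMM factors) does not depend on transcript length and may be compared between genes. All 12 cDC2 and dendritic cell markers were measured, and their summed level was 24191 to 30766 CPM in WT, 17504 to 20639 in WT+IFNa and 11748 to 12822 in A20iKO. Cd209a, a C-type lectin of cDC2s, averaged 331 CPM in WT, 114 in WT+IFNa and 11 in A20iKO, so this marker was nearly absent from the A20iKO libraries. Of the 12 markers, 4 were lower and none higher with IFNa against WT, beside 0.702% and 2.4% of all genes tested. In A20iKO against WT, 9 of the 12 were lower and 1 higher, beside 4.91% and 5.77% of all genes tested. The 1 that rose was Sirpa, a surface receptor used to tell cDC2s from cDC1s, at 170, 197 and 455 CPM on average in WT, WT+IFNa and A20iKO, with a log2 fold change of 1.42 (SE 0.17; edgeR adjusted p = 0.000112) in A20iKO. Itgax, which encodes CD11c, had 0.53 (SE 0.27; edgeR adjusted p = 0.275) in A20iKO and did not pass. For Tnfaip3 the WT libraries had 232, 51 and 42 counts, the WT+IFNa libraries 73, 84 and 74, and the A20iKO libraries 285, 476 and 377. The labels do not name the exons removed, so these 3′ counts cannot be read as a check of the deletion. Tnfaip3 passed as higher in A20iKO than in WT, with a log2 fold change of 1.95 (SE 0.52; edgeR adjusted p = 0.028), and A20iKO is used below as the title of these libraries. That call was lost without WT replicate 2 (edgeR adjusted p = 0.0733), WT replicate 3 (0.0776), A20iKO replicate 2 (0.113) or A20iKO replicate 3 (0.0645). It was also lost with only the 2 groups compared (0.0614) and without the most stromal-rich library of each group (0.117). Stromal markers such as collagens were high in 1 library of each group, summing to 4703 CPM in WT replicate 2, 4829 in WT+IFNa replicate 3 and 4453 in A20iKO replicate 1, while the other 6 libraries had 484 to 2398 CPM.

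Summed over the 42 genes, mitotic transcripts were least abundant in WT, higher in WT+IFNa and highest in A20iKO. The sum was 2823, 2349 and 2492 CPM in the WT libraries, 4105, 3421 and 3971 in WT+IFNa, and 4387, 5242 and 5392 in A20iKO. The groups did not overlap in this sum. As a share of all counts, the genes took 0.263% ± 0.00921 in WT, 0.363% ± 0.0204 in WT+IFNa and 0.509% ± 0.0388 in A20iKO (SD, n = 3 libraries each). The group means rose in the order WT, WT+IFNa, A20iKO for 33 of the 42 genes. A20iKO replicate 1, the stromal-rich library of its group, was the lowest A20iKO library for 32 of the 42. Of the other stromal-rich libraries, WT replicate 2 was the lowest of its group for 20 genes and the highest for 10. WT+IFNa replicate 3 was the lowest of its group for 9 and the highest for 15. Gm26917, a long noncoding RNA, held a large and uneven share of the reads: 7.41% ± 3.5 (SD, n = 3) of a WT library on average, 14.7% ± 2.53 of a WT+IFNa library and 13.1% ± 0.799 of an A20iKO library. With its counts removed, the same 10, 25 and 3 members were called higher as with them (WT+IFNa against WT, A20iKO against WT and A20iKO against WT+IFNa).

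**Figure D2:**
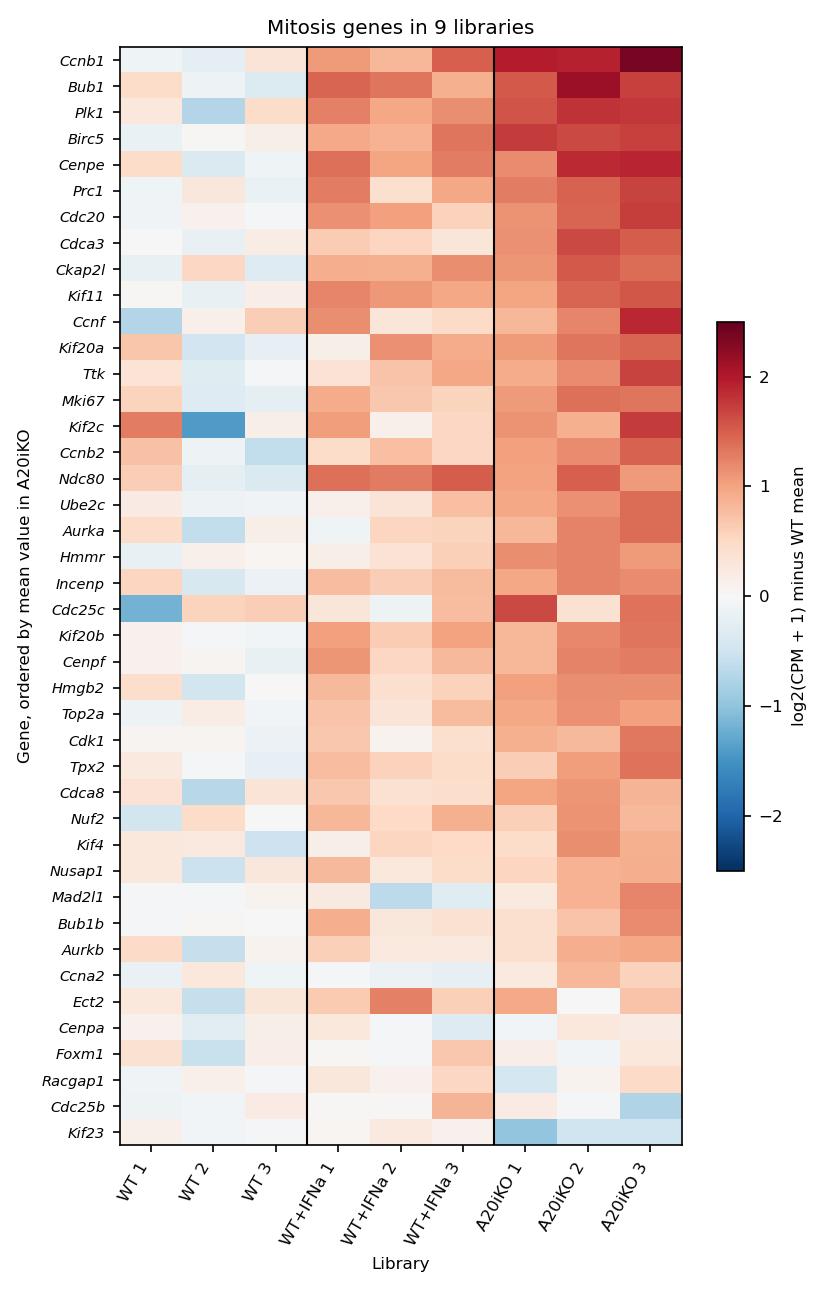
Level of each of the 42 mitosis genes (rows, ordered by mean value in A20iKO) in each library (columns), as log2(CPM + 1) minus the mean of the WT libraries. Red is above and blue below the WT mean. Most rows turn red in WT+IFNa and darker red in A20iKO, A20iKO replicate 1 is often the palest of its group, and Kif23 at the bottom is blue in all 3 A20iKO libraries.

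The first comparison sets WT cultures given IFNa against WT cultures. Of the 42 genes, 10 rose and none fell (edgeR's quasi-likelihood test, Benjamini-Hochberg adjusted p under 0.05 over all genes tested), a share of 23.8% beside the 2.4% of all 13251 tested genes that rose. They were Birc5, Kif11, Cenpe, Kif20b, Ndc80, Ccnb1, Cenpf, Cdc20, Top2a and Plk1. Over all genes tested 0.702% fell, so the absence of a fall among 42 genes is near that share. The log2 fold change was positive for 39 of the 42, with a median of 0.59, beside a median of -0.02 over all genes tested. In 23 of the 42 all WT+IFNa libraries lay above all WT libraries, beside 9.77% of all genes, and in none did all lie below, beside 8.45%. At an unadjusted p under 0.05, 20 of the 42 passed, beside 12.7% of all genes, and none fell by DESeq2 or limma-voom either.

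The comparison of A20iKO with WT sets the libraries titled A20iKO against the WT libraries for the same genes. In A20iKO 25 of the 42 rose (59.5%) and 1 fell, Kif23, beside 5.77% of all genes that rose and 4.91% that fell. The log2 fold change was positive for 40 of the 42 and its median was 1.14, beside -0.01 over all genes. In 32 of the 42 all A20iKO libraries lay above all WT libraries, and in 1 all lay below, beside 15.4% and 12.6% of all genes. The comparisons with WT share the same 3 WT libraries, so their values are set side by side and are not independent of each other. Of the 42, 16 passed in none of the 3 comparisons.

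**Figure D3:**
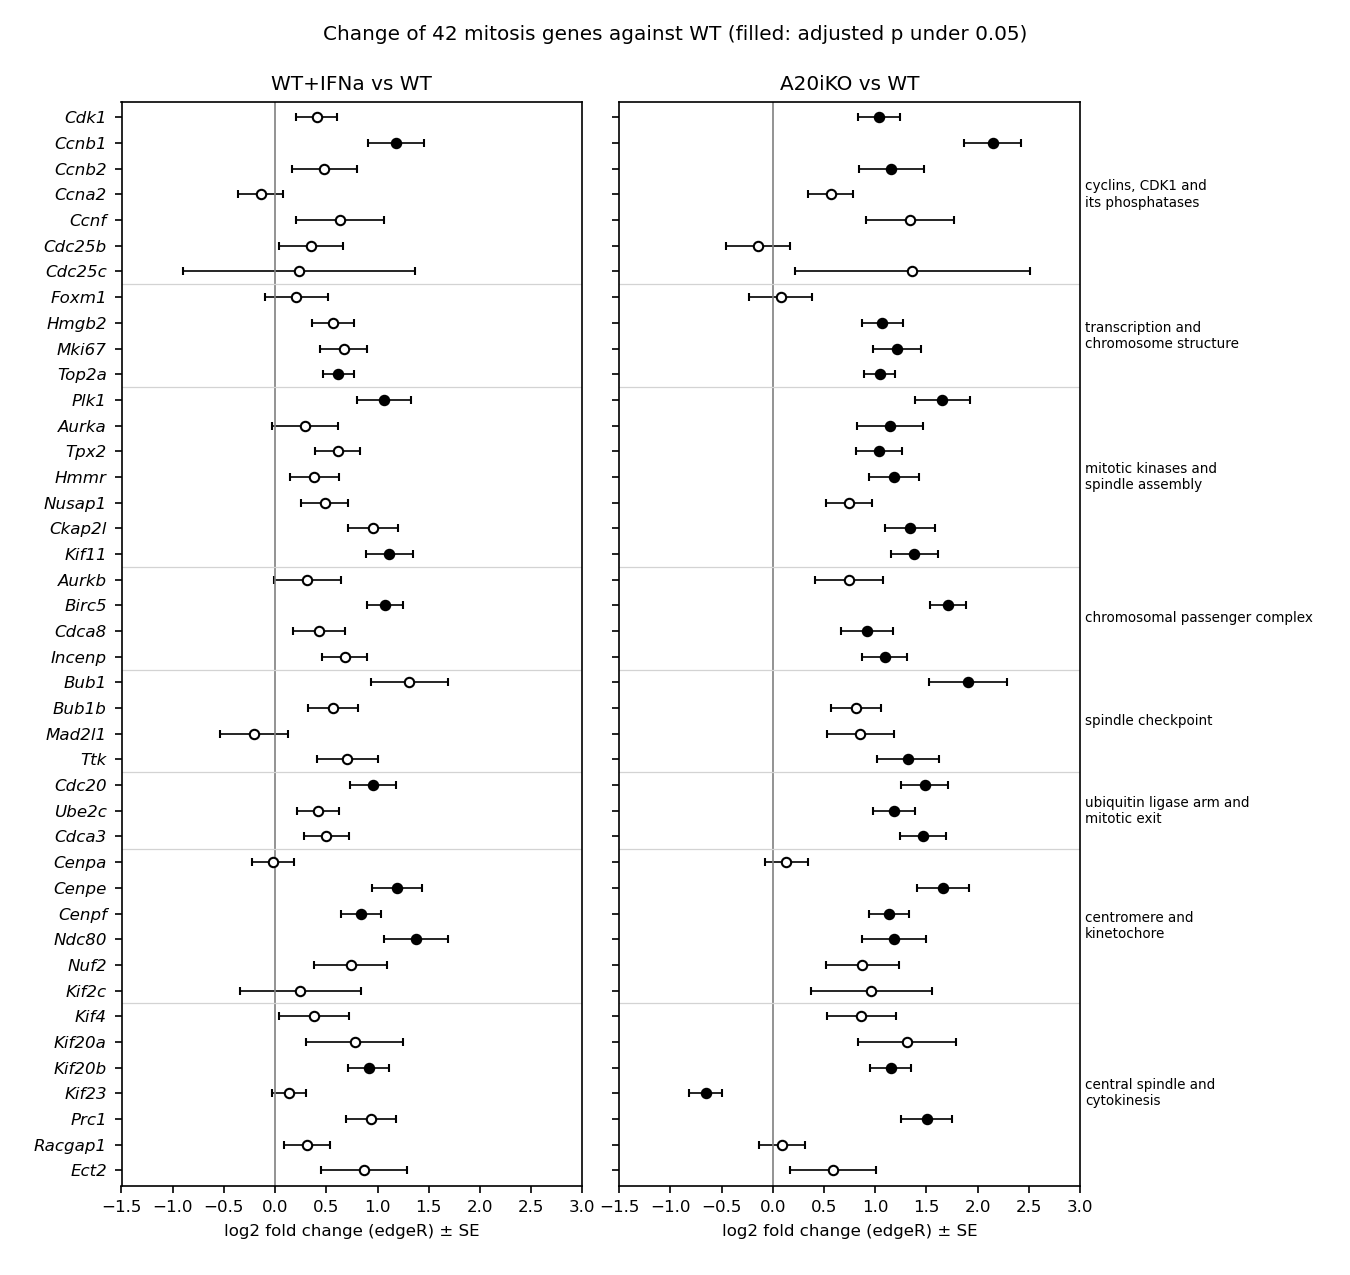
Log2 fold change against WT (x axis; point, estimate; whisker, SE from edgeR) of the 42 mitosis genes (y axis, grouped by role), for WT+IFNa on the left and A20iKO on the right. Filled points have an adjusted p under 0.05: 10 on the left, and 26 on the right, of which Kif23 lies left of 0.

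Among the cyclins, CDK1 and its phosphatases, 1 of 7 rose with IFNa and 3 of 7 in A20iKO. Ccnb1 encodes cyclin B1, the partner that activates CDK1 at mitotic entry, and it had the largest log2 fold change of the 42 genes in A20iKO. Its level was 13.9, 12.8 and 19.3 CPM in WT, 32.5, 27.5 and 44.2 in WT+IFNa and 61.7, 60.5 and 82 in A20iKO. Against WT its log2 fold change was 1.18 (SE 0.27; edgeR adjusted p = 0.0335) with IFNa and 2.15 (SE 0.28; edgeR adjusted p = 0.000246) in A20iKO. The 3 groups did not overlap, and WT replicate 3 and A20iKO replicate 3 were the high libraries of their groups. Cdk1, the kinase itself, stood at 74.4, 74.8 and 64.4 CPM in WT, 114, 75.3 and 93.6 in WT+IFNa and 133, 126 and 178 in A20iKO. Its log2 fold change was 1.03 (SE 0.20; edgeR adjusted p = 0.00476) in A20iKO and 0.41 (SE 0.20; edgeR adjusted p = 0.441) with IFNa. It thus rose in A20iKO, and every library of either group lay above the WT libraries, WT+IFNa replicate 2 only barely. Ccnb2, encoding cyclin B2, was counted at 45.8, 24.8 and 17.3 CPM in WT, 37.6, 46 and 39.3 in WT+IFNa and 56.5, 62.9 and 76.9 in A20iKO. In A20iKO the log2 fold change of Ccnb2 was 1.16 (SE 0.32; edgeR adjusted p = 0.0339), and with IFNa it was 0.48 (SE 0.32; edgeR adjusted p = 0.609). WT replicate 1 was the high WT library and reached the WT+IFNa range. Ccna2 (cyclin A2), Ccnf (cyclin F), Cdc25b and Cdc25c passed in no comparison. Their log2 fold changes in A20iKO were 0.57, 1.34, -0.15 and 1.36. Cdc25c had at most 6.82 CPM in any library, the lowest level of the 42.

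The 4 genes of transcription and chromosome structure held the most abundant members. Top2a encodes topoisomerase II alpha, which untangles sister chromatids, and it ranked first by level in all 3 groups. It stood at 404, 501 and 416 CPM in WT, 724, 545 and 758 in WT+IFNa and 859, 974 and 887 in A20iKO. The log2 fold change of Top2a was 0.62 (SE 0.15; edgeR adjusted p = 0.0437) with IFNa and 1.04 (SE 0.15; edgeR adjusted p = 0.000563) in A20iKO. The 3 groups did not overlap, and WT+IFNa replicate 2 was the low library of its group. Hmgb2, a chromatin protein that bends DNA, stood at 348, 185 and 258 CPM in WT, 451, 338 and 381 in WT+IFNa and 517, 573 and 570.2 in A20iKO. It rose in A20iKO by a log2 fold change of 1.07 (SE 0.20; edgeR adjusted p = 0.00372), whereas with IFNa the value was 0.56 (SE 0.20; edgeR adjusted p = 0.21). WT replicate 1 overlapped the WT+IFNa libraries, and no WT library reached the A20iKO range. Mki67 encodes Ki-67, the coat protein of mitotic chromosomes used to mark cycling cells. Its level was 129, 68.9 and 73 CPM in WT, 165, 138 and 128 in WT+IFNa and 181, 226 and 221 in A20iKO. The gene rose in A20iKO (1.21 on the log2 scale, SE 0.24; edgeR adjusted p = 0.00405), and its IFNa value was 0.67 (SE 0.23; edgeR adjusted p = 0.188). WT replicate 1 stood apart from the other WT libraries and reached the lowest WT+IFNa library. Foxm1, the transcription factor that acts with MuvB on late cell cycle promoters, passed in no comparison. It was read at 40.9, 20.8 and 34.9 CPM in WT, 31.6, 29.96 and 50.3 in WT+IFNa and 35.2, 29.3 and 37.6 in A20iKO. The fitted log2 fold change was 0.21 (SE 0.31; edgeR adjusted p = 0.889) with IFNa and 0.08 (SE 0.31; edgeR adjusted p = 0.934) in A20iKO, and all 3 groups overlapped.

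**Figure D4:**
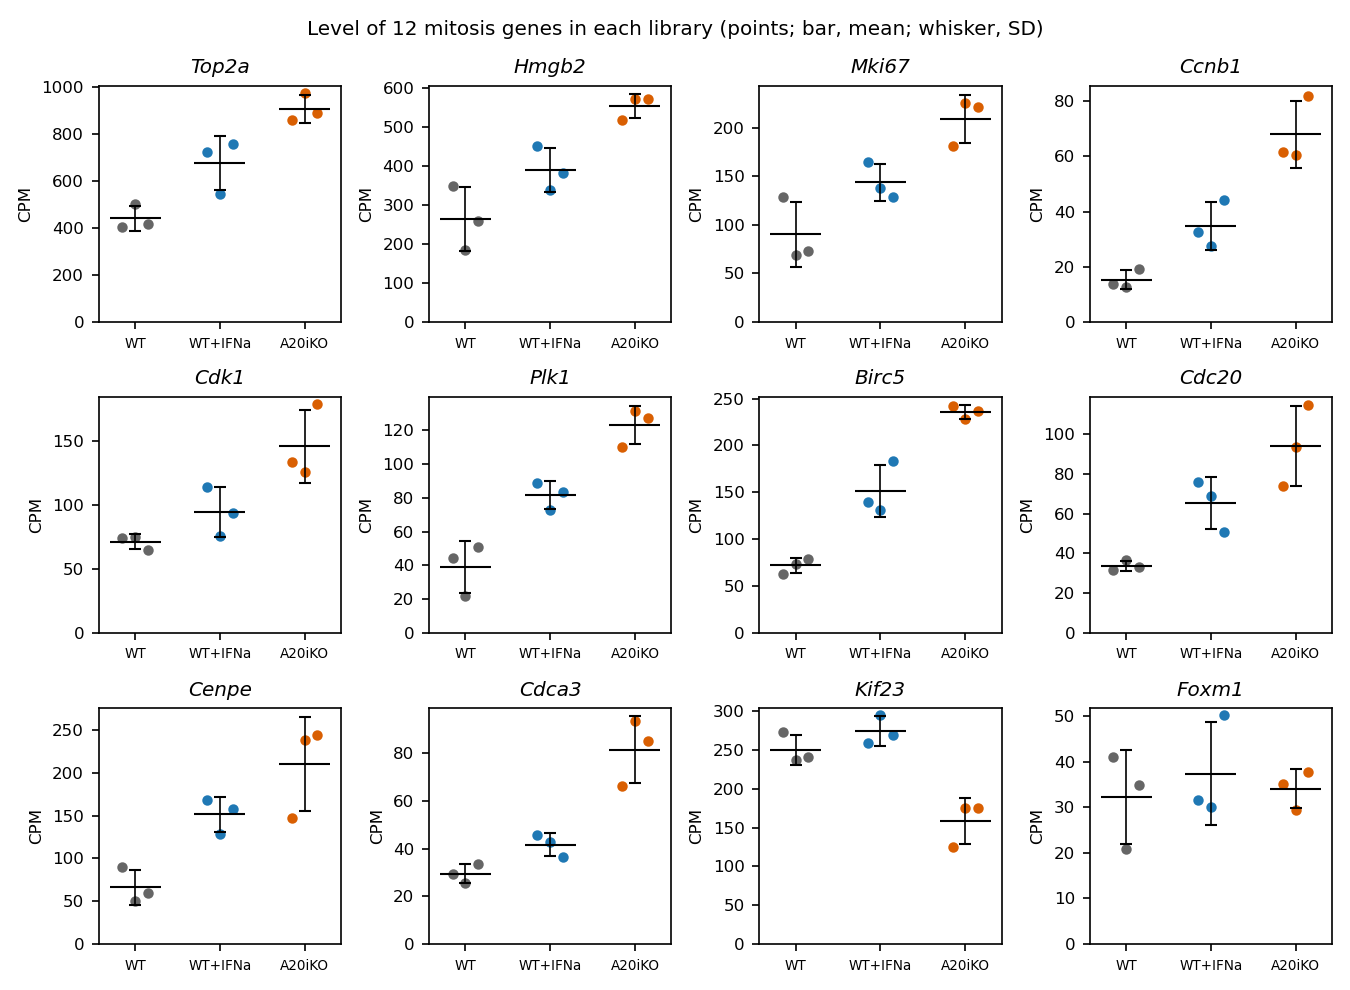
CPM (y axis, from 0) of 12 mitosis genes in each library (points, replicates 1 to 3 from left to right) by group (x axis), with the mean as a bar and the SD as a whisker (n = 3). In Ccnb1, Plk1, Birc5 and Top2a the 3 groups do not overlap, Kif23 is lower in the A20iKO libraries than in all the others, and the groups of Foxm1 overlap.

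Of the 7 genes of mitotic kinases and spindle assembly, 2 rose with IFNa and 6 in A20iKO. Plk1 encodes Polo-like kinase 1, which acts from mitotic entry to cytokinesis. Its level was 44.2, 21.8 and 50.9 CPM in WT, 88.8, 72.5 and 83.7 in WT+IFNa and 110.2, 131 and 127 in A20iKO. The log2 fold change of Plk1 was 1.07 (SE 0.26; edgeR adjusted p = 0.0486) with IFNa and 1.65 (SE 0.27; edgeR adjusted p = 0.00127) in A20iKO. WT replicate 2 was the low WT library and the groups did not overlap. Kif11 encodes the Eg5 motor that pushes spindle poles apart. It stood at 25.5, 21.8 and 28.1 CPM in WT, 59.3, 54.1 and 49.8 in WT+IFNa and 50.6, 70.6 and 75.3 in A20iKO. Its log2 fold change was 1.12 (SE 0.23; edgeR adjusted p = 0.0153) with IFNa and 1.38 (SE 0.23; edgeR adjusted p = 0.00145) in A20iKO. Both groups lay above WT, and they overlapped each other. Aurka, the Aurora kinase of spindle poles, was counted at 32.5, 14.8 and 25.9 CPM in WT, 21.4, 34.1 and 34.4 in WT+IFNa and 42.4, 56.5 and 62.8 in A20iKO. Tpx2, which activates Aurora A on the spindle, stood at 55.3, 45.8 and 40.3 CPM in WT, 80.9, 70.7 and 64.2 in WT+IFNa and 72.3, 97 and 121 in A20iKO. Both rose in A20iKO, Aurka by 1.14 (SE 0.32; edgeR adjusted p = 0.0385) and Tpx2 by 1.04 (SE 0.22; edgeR adjusted p = 0.00884) on the log2 scale. With IFNa, Aurka had 0.29 (SE 0.32; edgeR adjusted p = 0.825) and Tpx2 0.61 (SE 0.22; edgeR adjusted p = 0.23). Only for Tpx2 did the WT+IFNa libraries clear the WT range. Hmmr, a spindle protein that binds hyaluronan outside cells, stood at 19.7, 24.4 and 23.3 CPM in WT, 24.8, 29.1 and 34.1 in WT+IFNa and 51.4, 54.1 and 47.6 in A20iKO. Ckap2l, a spindle microtubule protein, stood at 32.5, 53.5 and 29.4 CPM in WT, 70.9, 69.2 and 84.1 in WT+IFNa and 81.3, 110.1 and 100.1 in A20iKO. In A20iKO the log2 fold change was 1.18 (SE 0.24; edgeR adjusted p = 0.00613) for Hmmr and 1.34 (SE 0.24; edgeR adjusted p = 0.00289) for Ckap2l. The IFNa values were 0.38 (SE 0.24; edgeR adjusted p = 0.582) and 0.96 (SE 0.24; edgeR adjusted p = 0.0533), in the same order. Neither gene's WT libraries overlapped the other groups. Nusap1, a microtubule-bundling protein, passed in no comparison (A20iKO against WT 0.74, edgeR adjusted p = 0.0567).

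The chromosomal passenger complex corrects faulty chromosome attachments and steers cytokinesis, and 1 of its 4 genes rose with IFNa and 3 in A20iKO. Birc5 encodes survivin, the subunit that docks the complex on chromosomes. It stood at 63.3, 73.4 and 79.1 CPM in WT, 139.7, 131 and 183 in WT+IFNa and 242, 228 and 237 in A20iKO. The log2 fold change came to 1.07 (SE 0.17; edgeR adjusted p = 0.00278) with IFNa and 1.71 (SE 0.17; edgeR adjusted p = 3.11e-05) in A20iKO, the smallest p of the 42 genes in both. The 3 groups did not overlap, and the A20iKO libraries lay close together. Incenp, the scaffold, was read at 135, 70.4 and 84.3 CPM in WT, 160.2, 143 and 161 in WT+IFNa and 183, 222 and 213 in A20iKO. Cdca8, encoding borealin, was read at 71.9, 34 and 70.05 CPM in WT, 89.1, 72.5 and 75.9 in WT+IFNa and 112, 121 and 101 in A20iKO. In A20iKO the log2 fold change was 1.09 (SE 0.22; edgeR adjusted p = 0.0056) for Incenp and 0.92 (SE 0.25; edgeR adjusted p = 0.0344) for Cdca8, and with IFNa it was 0.68 (SE 0.22; edgeR adjusted p = 0.152) and 0.43 (SE 0.25; edgeR adjusted p = 0.546). For both genes no WT library reached the WT+IFNa or A20iKO range. Aurkb, the kinase of the complex, stood at 26.3, 12.1 and 19.97 CPM in WT, 28.5, 22.1 and 22.2 in WT+IFNa and 24.8, 35.9 and 37.4 in A20iKO. Its log2 fold change was 0.32 (SE 0.33; edgeR adjusted p = 0.812) with IFNa and 0.75 (SE 0.33; edgeR adjusted p = 0.201) in A20iKO, and it passed in neither. WT replicate 1 lay above the lowest library of either other group.

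Of the 4 spindle checkpoint genes none passed with IFNa and 2 rose in A20iKO. Bub1 encodes the checkpoint kinase at kinetochores. Its level was 9.79, 6.14 and 5.17 CPM in WT, 20.3, 18.6 and 13.5 in WT+IFNa and 21.6, 33.2 and 24.4 in A20iKO. In A20iKO it rose by 1.90 (SE 0.38; edgeR adjusted p = 0.00557) on the log2 scale, the second largest value of the 42, and its IFNa value was 1.31 (SE 0.38; edgeR adjusted p = 0.0991). The groups did not overlap, at counts that were low in WT. Ttk encodes the kinase MPS1, which starts the checkpoint signal, and stood at 25, 15.6 and 19.1 CPM in WT, 25.3, 32.7 and 39.3 in WT+IFNa and 37.9, 45.3 and 65.6 in A20iKO. Against WT the log2 fold change was 1.32 (SE 0.30; edgeR adjusted p = 0.0122) in A20iKO and 0.70 (SE 0.30; edgeR adjusted p = 0.333) with IFNa. WT replicate 1 came close to the lowest WT+IFNa library. Bub1b (BUBR1) and Mad2l1 (MAD2), both parts of the checkpoint complex that holds CDC20, passed in no comparison. Bub1b had a log2 fold change of 0.56 (SE 0.24; edgeR adjusted p = 0.348) with IFNa and 0.81 (SE 0.25; edgeR adjusted p = 0.0526) in A20iKO, and Mad2l1 of -0.21 (SE 0.33; edgeR adjusted p = 0.901) and 0.86 (SE 0.33; edgeR adjusted p = 0.135).

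All 3 genes of the ubiquitin ligase arm and mitotic exit rose in A20iKO, and 1 with IFNa. Cdc20 encodes the activator that brings substrates to the APC/C. It stood at 31.6, 36.4 and 32.9 CPM in WT, 75.9, 69.1 and 50.9 in WT+IFNa and 74, 93.6 and 114 in A20iKO. Its log2 fold change was 0.96 (SE 0.22; edgeR adjusted p = 0.0352) with IFNa and 1.48 (SE 0.23; edgeR adjusted p = 0.000809) in A20iKO. No WT library came near the other groups, which overlapped each other. Ube2c, the ubiquitin-conjugating enzyme that works with the APC/C, stood at 80.5, 63.7 and 65.1 CPM in WT, 76.1, 87.3 and 117 in WT+IFNa and 136, 155 and 184 in A20iKO. Cdca3, a trigger of mitotic entry that is itself degraded at exit, stood at 29.2, 25.6 and 33.6 CPM in WT, 45.8, 42.8 and 36.3 in WT+IFNa and 66.2, 93.5 and 85 in A20iKO. In A20iKO the log2 fold change was 1.18 (SE 0.20; edgeR adjusted p = 0.00201) for Ube2c and 1.47 (SE 0.22; edgeR adjusted p = 0.000776) for Cdca3, and with IFNa it was 0.42 (SE 0.20; edgeR adjusted p = 0.422) and 0.50 (SE 0.22; edgeR adjusted p = 0.359). In both genes the A20iKO libraries lay above all others.

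Among the 6 centromere and kinetochore genes, the same number, 3, rose in each comparison with WT. Cenpe, the kinesin that carries chromosomes to the spindle equator, stood at 89.5, 50.2 and 59.7 CPM in WT, 169, 129 and 158 in WT+IFNa and 147, 239 and 245 in A20iKO. It had a log2 fold change of 1.19 (SE 0.25; edgeR adjusted p = 0.0168) with IFNa and 1.66 (SE 0.25; edgeR adjusted p = 0.000726) in A20iKO. WT libraries lay below all others, while A20iKO replicate 1 fell inside the WT+IFNa range. Cenpf, a large protein of the outer kinetochore, was read at 88.7, 85.8 and 72.1 CPM in WT, 178, 118 and 144 in WT+IFNa and 146, 195 and 199 in A20iKO. Ndc80, which grips the ends of microtubules, was read at 24.2, 13 and 11.9 CPM in WT, 42, 39.6 and 46 in WT+IFNa and 32, 45.8 and 33.7 in A20iKO. With IFNa the log2 fold change was 0.84 (SE 0.20; edgeR adjusted p = 0.0349) for Cenpf and 1.38 (SE 0.31; edgeR adjusted p = 0.0295) for Ndc80, and in A20iKO it was 1.13 (SE 0.20; edgeR adjusted p = 0.00206) and 1.18 (SE 0.31; edgeR adjusted p = 0.0277). Ndc80 was one of 4 genes whose group means ran in the order WT, A20iKO, WT+IFNa, and no WT library of either gene reached the other groups. Nuf2, the partner of Ndc80, Kif2c, a kinesin that takes microtubules apart, and Cenpa, the histone H3 variant that marks centromeres, passed in no comparison. Cenpa ranked 9 by level in WT, with a log2 fold change of -0.02 (SE 0.21; edgeR adjusted p = 0.991) with IFNa and 0.13 (SE 0.21; edgeR adjusted p = 0.806) in A20iKO. The values of Nuf2 and Kif2c in A20iKO were 0.87 and 0.96.

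Of the 7 genes of the central spindle and cytokinesis, 1 rose with IFNa, and in A20iKO 2 rose and 1 fell. Prc1 bundles the microtubules of the central spindle. It stood at 33.6, 44.3 and 32.5 CPM in WT, 90.5, 48.6 and 72.1 in WT+IFNa and 89.7, 104 and 119 in A20iKO. Its log2 fold change was 1.50 (SE 0.25; edgeR adjusted p = 0.00139) in A20iKO and 0.94 (SE 0.24; edgeR adjusted p = 0.0624) with IFNa. The WT libraries lay below all others. Kif20b, a kinesin needed for the last step of cell separation, was read at 48.8, 43.9 and 43.4 CPM in WT, 93, 71.4 and 91.8 in WT+IFNa and 81.1, 106 and 115 in A20iKO. It rose by 0.91 (SE 0.20; edgeR adjusted p = 0.0217) with IFNa and by 1.15 (SE 0.20; edgeR adjusted p = 0.00194) in A20iKO on the log2 scale, again with the WT libraries below all others.

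Kif23 went the other way. It encodes MKLP1, the kinesin that together with RACGAP1 forms the centralspindlin complex. Its level was 273, 237 and 241 CPM in WT, 259, 296 and 269 in WT+IFNa and 125, 176 and 176 in A20iKO. Against WT, the log2 fold change was 0.13 (SE 0.16; edgeR adjusted p = 0.85) with IFNa and -0.66 (SE 0.16; edgeR adjusted p = 0.0209) in A20iKO. All 3 A20iKO libraries lay below the other 6, and A20iKO replicate 1 was the lowest. Kif23 ranked 3 by level among the 42 genes in WT and 9 in A20iKO. The call against WT was lost without WT replicate 1, WT replicate 3 or A20iKO replicate 1, with log2 fold changes of -0.58, -0.69 and -0.51 and edgeR adjusted p of 0.058, 0.0522 and 0.0645, over a range of 0.000984 to 0.0645 across 22 alternatives. Rplp1, a ribosomal protein gene that neighbours Kif23 and was chosen after its values were seen, had -0.34 (SE 0.10; edgeR adjusted p = 0.0566) in A20iKO. Racgap1, whose product is the partner of MKLP1, stood at 88.4, 103 and 91.6 CPM in WT, 114, 102 and 135 in WT+IFNa and 68.9, 100.5 and 131 in A20iKO. The fitted log2 fold change was 0.31 (SE 0.22; edgeR adjusted p = 0.659) with IFNa and 0.09 (SE 0.22; edgeR adjusted p = 0.887) in A20iKO, and all groups overlapped. Ect2, the exchange factor that centralspindlin recruits to start furrowing, had 0.58 (SE 0.42; edgeR adjusted p = 0.483) in A20iKO. The motor genes Kif4 and Kif20a had 0.86 and 1.31, and neither passed.

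Set directly against each other, A20iKO exceeded WT+IFNa in 3 of the 42 genes (7.14%) and was lower in 1, beside 2.05% and 3.41% of all genes. The log2 fold change was positive for 36 of the 42 with a median of 0.50, beside 0.02 over all genes. All A20iKO libraries lay above all WT+IFNa libraries in 17 genes and below in 1, beside 12.3% of all genes in each direction. Cdca3 was higher in A20iKO by 0.97 (SE 0.22; edgeR adjusted p = 0.0201), Birc5 by 0.64 (SE 0.17; edgeR adjusted p = 0.0454) and Ube2c by 0.76 (SE 0.20; edgeR adjusted p = 0.0468) on the log2 scale. Kif23 was lower, with a log2 fold change of -0.79 (SE 0.16; edgeR adjusted p = 0.0122). Of these, the Kif23 call remained in each of the 22 alternatives. Cdca3 was lost without WT+IFNa replicate 2 or 3 or A20iKO replicate 2 or 3 (edgeR adjusted p of 0.0672, 0.0725, 0.126 and 0.0872). Birc5 was lost without WT replicate 3, WT+IFNa replicate 1 or 2, or any 1 A20iKO library (0.0592, 0.153, 0.182, 0.107, 0.129 and 0.143), and Ube2c without WT replicate 3, WT+IFNa replicate 1 or 2, or A20iKO replicate 2 or 3 (0.0635, 0.158, 0.155, 0.132 and 0.209).

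Some calls against WT leaned on single libraries or on the fit used. Of the 25 genes that rose in A20iKO, 19 passed in each of the 22 alternatives. Aurka was lost without WT replicate 2 or 3, WT+IFNa replicate 2 or A20iKO replicate 2 or 3, Ccnb2 without the same 5, and Cdca8 without WT replicate 2, WT+IFNa replicate 2 or any A20iKO library. Ndc80 was lost without WT replicate 2 or 3 or A20iKO replicate 2 or 3, and Tpx2 and Ttk without A20iKO replicate 3. The highest edgeR adjusted p in these was 0.149 for Aurka, 0.135 for Ccnb2, 0.125 for Cdca8, 0.136 for Ndc80, 0.0586 for Tpx2 and 0.0808 for Ttk. With only the 2 groups compared, Aurka, Ccnb2, Cdca8 and Ndc80 were lost as well (edgeR adjusted p of 0.0613, 0.0737, 0.0842 and 0.0747). A replicate block lost Aurka, Ccnb2 and Ndc80 (0.0823, 0.0606 and 0.0543). Aurka, Ccnb2, Cdca8 and Ndc80 were also lost without the 3 stromal-rich libraries. Of the 10 genes that rose with IFNa, Birc5 alone passed in all 22. Without WT+IFNa replicate 1 the other 9 were lost, and 4 members passed without WT replicate 3 and also without WT+IFNa replicate 3. With 1 library left out, 8 members passed without WT replicate 1, WT replicate 2 or WT+IFNa replicate 2, of which 5, 6 and 7 were among the 10, and 9, 5 and 6 passed without A20iKO replicate 1, 2 and 3. Without the 3 stromal-rich libraries, 6 members passed with IFNa, 5 of them among the 10, and 23 in A20iKO against WT, 21 of them among the 25.

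The genes around the members in the cell cycle were read for the same contrasts. Over all genes tested, 2.4% rose with IFNa, and in A20iKO 5.77% rose and 4.91% fell. At an unadjusted p under 0.05, 12.7% of all genes passed with IFNa. Of 67 other mitosis genes tested, none passed with IFNa by edgeR (27 at an unadjusted p under 0.05) and 18 rose in A20iKO, with median log2 fold changes of 0.60 and 0.92. Among them were Cks1b, a CDK-binding subunit, at 1.41 (edgeR adjusted p = 0.000793), and Cdca2, a regulator of mitotic exit, at 1.40 (edgeR adjusted p = 0.00189) in A20iKO. Of 46 S-phase and replication genes, 3 rose with IFNa and 20 in A20iKO, with medians of 0.52 and 0.96. Lig1, the ligase that joins replicated DNA fragments, had 1.14 (SE 0.18; edgeR adjusted p = 0.00212) with IFNa and 1.48 (SE 0.18; edgeR adjusted p = 0.000117) in A20iKO. Of the 16 APC/C subunits 1 rose in A20iKO (6.25%), Anapc5, close to the share over all genes. No subunit passed with IFNa (1 at an unadjusted p under 0.05). Of 19 genes for MuvB, E2F and pocket proteins, none passed with IFNa (2 at an unadjusted p under 0.05). In A20iKO 2 of the 19 rose (10.5%, E2f2 and Rbbp4) and 1 fell (5.26%, Tfdp2). With so few calls, the counts of these lists are not read as a result about the APC/C or MuvB genes.

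The G1 cyclins and CDK inhibitors had another pattern. With IFNa 3 of 14 rose: Ccnd2 and Ccnd1, cyclins that start G1, by 2.13 (SE 0.17; edgeR adjusted p = 4.76e-06) and 0.74 (SE 0.17; edgeR adjusted p = 0.0329) on the log2 scale, and Cdkn1a, the inhibitor p21, by 0.84 (SE 0.19; edgeR adjusted p = 0.0262). In A20iKO against WT 2 rose and 1 fell: Cdk6, a G1 kinase, at 2.91 (SE 0.21; edgeR adjusted p = 1.98e-06), Cdkn2b, the inhibitor p15, with no count in the WT libraries and 30, 9 and 71 counts in A20iKO (edgeR adjusted p = 0.0154), and Myc at -1.34 (SE 0.38; edgeR adjusted p = 0.0368). These calls rested on single libraries in part: without 1 library the edgeR adjusted p reached 0.124 for Ccnd1 (WT+IFNa replicate 1), 0.141 for Cdkn1a (WT+IFNa replicate 1), 0.156 for Myc (A20iKO replicate 2) and 0.0699 for Cdkn2b (A20iKO replicate 3). Cdkn2b did not pass with IFNa. The largest log2 fold change of the G1 list was 8.17 in A20iKO and 7.15 with IFNa, the latter in a gene that did not pass. The value with IFNa is thus not read as a rise. The summed level of the 15 listed G1 genes was 2263 to 2895 CPM in WT, 4048 to 5107 in WT+IFNa and 2339 to 3118 in A20iKO. The G1 sum was thus high in WT+IFNa alone, while the sums of the mitosis and S-phase genes were highest in A20iKO. Gene by gene the G1 contrast was smaller. The median log2 fold change of the 14 tested was 0.66 with IFNa (12 positive) and 0.42 in A20iKO (9 positive).

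**Figure D5:**
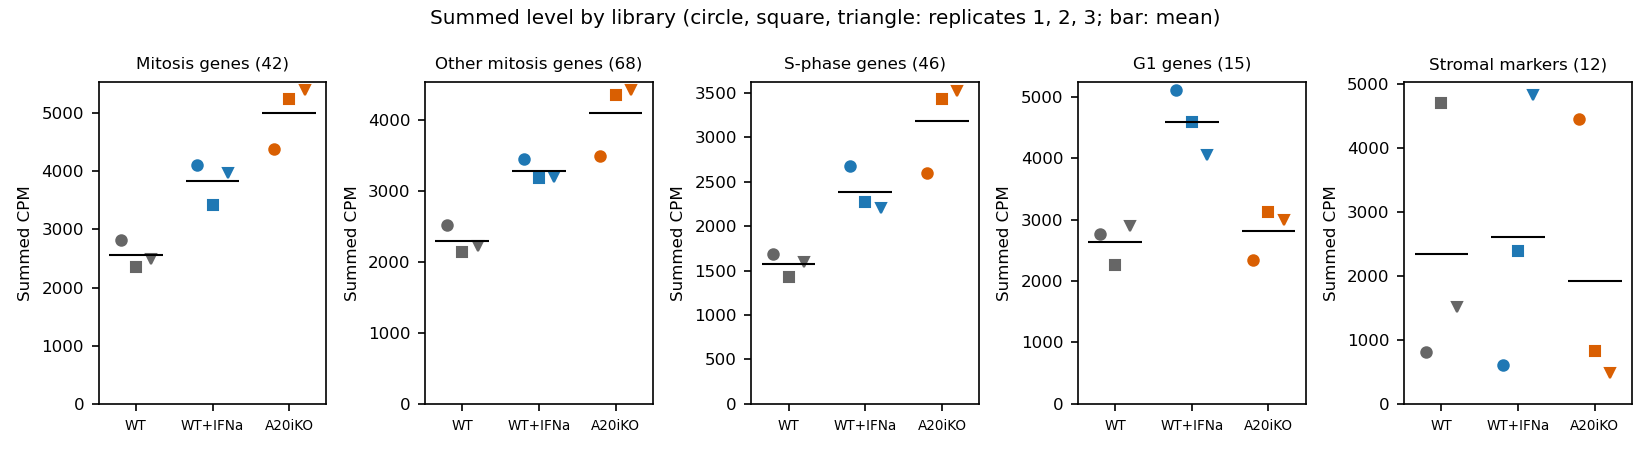
Summed CPM (y axis, from 0) of 5 gene lists in each library (points; circle, square and triangle are replicates 1, 2 and 3) by group (x axis), with the mean as a bar. The sums of the 42 mitosis genes, of other mitosis genes and of S-phase genes are lowest in WT and highest on average in A20iKO, the G1 sum is highest in WT+IFNa, and the stromal sum is high in 1 library of each group.

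Markers of some other cell types also moved with the groups. Of all genes tested, 2.4% rose with IFNa, and in A20iKO 5.77% rose and 4.91% fell. Of 9 haematopoietic progenitor markers tested, 1 rose with IFNa and 6 in A20iKO, and the list of 11 summed to 104 to 162 CPM in WT, 158 to 188 in WT+IFNa and 563 to 719 in A20iKO. The G1 kinase gene Cdk6 is also in this list. Spink2 was under 1 CPM in every library. Kit and Cd34, which define early progenitors, averaged 23.1 and 1.77 CPM in WT and 70.8 and 15.5 in A20iKO. Of 12 monocyte and macrophage markers, 4 rose with IFNa and 10 in A20iKO, and the sum was 1162 to 1378 CPM in WT, 2382 to 2893 in WT+IFNa and 2754 to 3056 in A20iKO. Of 13 neutrophil and granulocyte precursor markers tested, 3 rose with IFNa, and in A20iKO 5 rose and 2 fell. Those that fell were S100a9 and S100a8, calcium-binding proteins of neutrophils, by -3.29 (SE 0.24; edgeR adjusted p = 1.98e-06) and -2.60 (SE 0.27; edgeR adjusted p = 3.44e-05) on the log2 scale, and their mean levels were 47.8 and 36.4 CPM in WT, 157 and 120.4 in WT+IFNa and 4.84 and 5.98 in A20iKO. Their list of 15 summed to 106 to 136 CPM in WT, 360 to 415 in WT+IFNa and 332 to 422 in A20iKO. Prtn3, a granule protease of myeloid precursors, averaged 0.593, 7.19 and 174 CPM in the 3 groups, whereas Fcnb was under 1 CPM in every library. Erythroid markers summed to 159 to 244 CPM in WT, 166 to 195 in WT+IFNa and 240 to 705 in A20iKO, with Epor under 1 CPM in every library. The 705 CPM was A20iKO replicate 1, a stromal-rich library, and the other A20iKO libraries had 268 and 240. Of the 5 erythroid markers tested, none passed in either comparison with WT, and 1 was higher in A20iKO than in WT+IFNa. The 10 plasmacytoid dendritic cell and B cell markers summed to 588 to 737 CPM in WT, 799 to 928 in WT+IFNa and 781 to 910 in A20iKO. Of the 8 tested, 1 rose with IFNa, and in A20iKO 4 rose and 1 fell. Their log2 fold changes in A20iKO ran from -1.94 to 4.91, so the similar sums hide changes of single genes. The part of these cell types in the mitosis gene results was not tested.

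Counts of some members are uncertain because neither the labels nor the files state the strand setting or how reads shared between genes were counted. In RefSeq, 16 of the 42 overlap another gene and 7 a protein-coding one: Ccna2 with Exosc9, Foxm1 with Tex52, Aurka with Cstf1, Nusap1 with Oip5, Cdc20 with Elovl1, Prc1 with Rccd1, and Kif20a with Brd8 and Cdc23. The files also list Ccnb1-ps and Kif4-ps, pseudogenes of Ccnb1 and Kif4, with which reads could be split.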

How the data were processed

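RNA of sorted cDC2s was made into 3′ tag libraries (QuantSeq FWD kit, per the labels' protocols), 9 libraries in 3 groups of 3, grouped by their titles. The authors deposited whole-number read counts per gene symbol, without normalization. The submitters' processing notes name build GRCm39 and the tools STAR 2.7.10b, featureCounts 2.0.6, fastp 0.23.1 and Bowtie2, without their roles, annotation or strand setting. The filter filterByExpr of edgeR (minimum count 10, minimum total 15) left 13251 genes and 99.8% of the counts. Differences were tested with edgeR 4.0.16 (R 4.3.3; TMM factors, quasi-likelihood test) with the 9 libraries fitted together (6 residual degrees of freedom) and 3 contrasts. P-values were adjusted over these genes by Benjamini-Hochberg, and 0.05 was the threshold. The common biological coefficient of variation was 0.554. SEs were derived from the F statistic. The procedure was also run on simulated data, with less spread between libraries than here and larger changes than most members had. That run checks the code and does not measure the error rates in these data. Libraries of a group differed far beyond sampling noise (lowest chi-square per degree of freedom 14.4), so each counted as 1 replicate.

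The mitosis genes, the other gene lists and the markers were chosen with earlier results of these data known. Members past the threshold in any comparison, and 10 named in any case, were given with every library's value; from other lists up to 4 genes per comparison by smallest p were eligible. Alternatives were DESeq2 1.42.0, limma-voom (limma 3.58.1) with and without sample quality weights, RLE, upper-quartile or no scaling factors, Gm26917 left out, other filters, only the compared groups, a replicate block, a stromal covariate, each library left out, and, added after seeing the data, the stromal-rich library of each group left out.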

Additional observations from a re-analysis of the deposited data

How the results depend on the processing

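The number of members higher in WT+IFNa than in WT (10) was 6 with library size alone (which moved the median of all genes to -0.15), 4 with only the 2 groups compared, 16 with the stromal covariate and 6 without the 3 stromal-rich libraries, and ran from 1 to 9 with 1 library left out. In A20iKO against WT (25 higher, 1 lower) it stayed between 21 and 28 over the alternatives that kept all libraries or left out the stromal-rich ones, and ran from 19 to 27 with 1 library left out. The number lower ran from 0 to 1. Against WT+IFNa (3 higher) it was 7 with DESeq2, 5 with limma-voom, 11 with sample quality weights, 5 with library size alone (median of all genes 0.12), 6 with only the 2 groups compared, 8 with the stromal covariate and 5 without the stromal-rich libraries, and 0 to 4 with 1 library left out. The causes were not tested.

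Over all genes, those higher with IFNa (318) numbered 490 by DESeq2 and 496 with the stromal covariate. Those lower (93) numbered 210, 184, 164 and 227 with DESeq2, library size alone, no filter and the stromal covariate, and 43 to 106 with 1 library left out. In A20iKO against WT, 478 to 750 were higher with 1 library left out (765 with all), and 991 were lower with the stromal covariate (651). Against WT+IFNa, 492, 538, 430, 471 and 469 were higher (271) with DESeq2, quality weights, no filter, 2 groups and the stromal covariate, and 145 to 342 with 1 library left out, while 772 were lower (452) with the stromal covariate and 227 to 546 with 1 left out.

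Replicate numbers were not taken as pairs. Same-numbered libraries of different groups had correlations of their deviations from the group means of -0.37 to 0.24, and other-numbered libraries of -0.31 to 0.36. These values cannot decide whether samples were paired, as the stromal-rich library has a different number in each group. With a replicate block, 4, 22 and 1 members were higher in the 3 comparisons in the order used above, and 45 genes were lower with IFNa. All 4 and all 22 were among the members called without the block, but in A20iKO against WT+IFNa none was: Cdca3, Birc5 and Ube2c did not pass (adjusted p 0.0615, 0.0719 and 0.0802) and Ccnb1 did.

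A tally was made for the members given above with every library's value, 84 pairs of gene and comparison. In it, 1664 values kept their direction and side of the threshold, 122 lost and 53 gained the call, and 9 changed sign. The remaining members were not in this tally, and some of them changed sign too. Over all 42, positive values in A20iKO against WT numbered 38 without WT replicate 2 (40 with all libraries). With IFNa they numbered 36 without the stromal-rich libraries (39 with all). Foxm1 changed sign with IFNa without WT replicate 2 (-0.02), WT+IFNa replicate 3 (-0.064) or the stromal-rich libraries (-0.30), in A20iKO without WT replicate 2 (-0.17), A20iKO replicate 3 (-0.0045) or the stromal-rich libraries (-0.18), and between A20iKO and WT+IFNa without WT+IFNa replicate 3 (0.15) or the stromal-rich libraries (0.12). With 1 library left out, Foxm1 ran from -0.064 to 0.42 with IFNa, -0.17 to 0.30 in A20iKO and -0.26 to 0.15 between A20iKO and WT+IFNa. Aurka changed sign with IFNa without the stromal-rich libraries (-0.068). Cdc25c had 1 to 52 counts per library.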

Other observations

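Outside the 42 genes, the 10 tested genes whose log2 CPM most resembled the members' mean over the 9 libraries were Klrb1f, Fyb, Lpl, Sting1, Ccrl2, Fam107b, Tmem123, Cct7, Adap1 and Usp35, with Pearson's r from 0.970 to 0.983. This is a description of 9 points that share 3 groups and was given no test. Among the members themselves, the correlation with the mean of the other members was lowest for Kif23 (-0.57), Cdc25b (-0.23) and Racgap1 (0.24), and highest for Cenpe (0.97).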
